A study of Neurospora crassa OR74A with 26 samples.

Results

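The shift of wild-type Neurospora crassa from sucrose to crystalline cellulose was described over all genes, in both directions and with the genes beside those for cell wall enzymes given most room. This filamentous fungus colonises burnt plant material in nature. The comparison takes 6 of the 26 libraries of the series: 3 of wild type held for 4 h on Avicel PH101, a microcrystalline cellulose, and 3 of wild type held for 4 h on fresh sucrose. All 9733 genes in the deposited files were members, and the 8629 with a mean of at least 1 FPKM (fragments per kilobase of transcript, scaled to the library) over the series were tested. Conidia were grown for 16 h in sucrose medium, and the mycelium was then washed and moved to the new medium. The strain was FGSC 2489, the wild type, in all groups compared here. A further 3 wild-type libraries, held for 4 h with no carbon source, were set beside the 6. The series also holds single libraries of cdr1 and cdr2 deletion strains, which entered the filter on mean FPKM and the fit. The labels count the libraries of a group as replicates and do not say whether they came from separate cultures. The p values therefore measure a spread between libraries, pooled over the 5 wild-type triplicates of the series, which include groups at 1 h.

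The numbers of reads, recovered from the deposited coverage, (in M, mega) were 11.8, 46.5 and 44.0 M on Avicel, 41.2, 108.3 and 110.6 M with no carbon and 12, 43.0 and 38.8 M on sucrose. Replicate 1 had reads of 40 bases on both Avicel and sucrose, against 50 bases in replicates 2 and 3, and it stood apart in both groups. The Pearson correlation of log2 levels across tested genes was 0.914 and 0.901 between Avicel replicate 1 and the other Avicel libraries and 0.99 between replicates 2 and 3. On sucrose these values were 0.956, 0.955 and 0.989. Genes are not independent replicates, so these correlations carry no test. Avicel replicate 1 was nearer to sucrose for many genes: it was the lowest of the Avicel libraries for 59.5% of the genes called higher and the highest for 46.1% of those called lower. A value of 0 stands for fewer than about 10 reads. FPKM is a share of each library, so that a change in the amount of RNA per cell cannot be seen in it, and a change in the kinds of cells cannot be told apart from a change within cells.

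Sucrose is a sugar that the fungus takes up and burns quickly, and as long as it lasts, carbon catabolite repression keeps genes for poorer carbon sources low. Cellulose has to be cut outside the cell into cellobiose and longer cellodextrins, which enter through cellodextrin transporters and are part of the signal that acts through the transcription factors CLR-1 and CLR-2. Fast growth on sugar calls for ribosomes, amino acids, nucleotides, membrane lipids and respiration, whereas growth on cellulose calls for the secretion of enzymes.

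Levels are given below as FPKM in replicates 1, 2 and 3, in that order. Changes are differences of mean log2(FPKM + 1), Avicel minus sucrose, with their standard error (SE). Adjusted p values are those of limma, two-sided and with Benjamini-Hochberg adjustment over the tested genes, and a gene is said to rise or fall on Avicel where the adjusted p is under 0.05. By this rule 58.4% of the tested genes differed, 34.3% higher on Avicel and 24.2% lower, so a count of members has meaning only beside these shares. The libraries of the 2 groups did not overlap for 64.1% of the tested genes. The median change over all tested genes was 0.24. With both 40-base libraries left out, 3026 genes rose and 2048 fell, against 2958 and 2085 with all libraries.

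Genes that rose and genes that fell differed most in their levels on sucrose. Genes that rose had a median level of 122 FPKM on Avicel and 23.3 FPKM on sucrose, and 337 of them were listed at 0 in all sucrose libraries. Genes that fell had medians of 112 FPKM on Avicel and 366 FPKM on sucrose, and 6 of them were listed at 0 in all Avicel libraries. Genes with no call had medians of 108 FPKM on Avicel and 106 FPKM on sucrose. The sets were chosen by the contrast with sucrose. High levels on sucrose for falls and low levels for rises thus follow at least in part from the choice. A change of at least 4-fold was seen in 50.3% of the rises and 39.6% of the falls; at least 16-fold rises made up 4.93% and at least 16-fold falls 2.5% of the tested genes. Genes with a symbol of their own in the reference table made up 8.69% of the rises, 16.8% of the falls and 13.1% of the genes that were not called, so most genes that rose can be named only by their identifier.

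**Figure D1:**
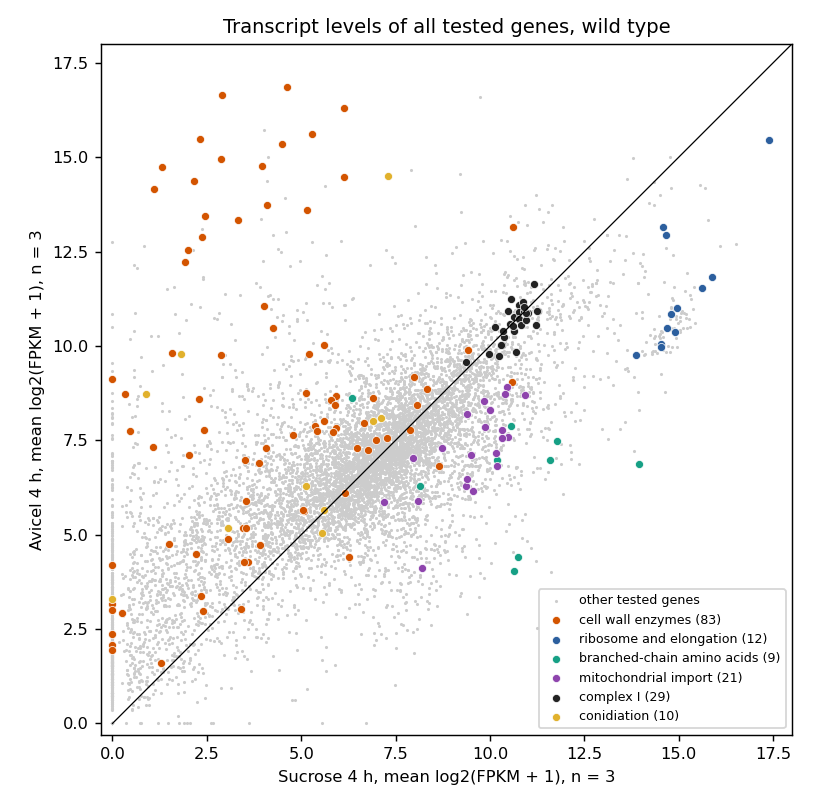
Mean level of every tested gene on Avicel (vertical axis) and on sucrose (horizontal axis), both as log2(FPKM + 1) over 3 libraries, with the line of equality and 6 gene lists in colour. Cell wall enzyme genes spread far above the line, ribosomal, branched-chain amino acid and mitochondrial import genes lie below it but for 1, and the 29 complex I genes lie close to it.

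The share of each library taken by these genes turned over. The 2958 genes that rose held 51.3%, 56.4% and 58.2% of all FPKM on Avicel, 47.0%, 48.3% and 51.2% with no carbon and 7.22%, 4.51% and 4.27% on sucrose. The 2085 genes that fell held 21.1%, 17.3% and 16.7% on Avicel, 22.7%, 20.3% and 20.1% with no carbon and 70.5%, 80.2% and 80.6% on sucrose. These sets were chosen by the same contrast, and their shares describe only how much of the transcript pool the called genes held. The 88 genes listed by symbol as cell wall enzymes made up 18.2%, 14.3% and 16.7% of all FPKM on Avicel, at most 0.583% with no carbon and at most 0.169% on sucrose. The 12 genes listed by symbol for ribosomal proteins and elongation factors made up 2.42%, 1.59% and 1.55% on Avicel. They made up between 1.73% and 2.19% with no carbon and 6.94%, 8.75% and 8.73% on sucrose. In summed share the no-carbon libraries stood nearer to sucrose for the enzymes and nearer to Avicel for the ribosomal genes. In the median over the enzyme genes, no carbon lay between the other media. The median of the mean levels of the 83 tested enzyme genes was 249 FPKM on Avicel, 68 FPKM with no carbon and 16.2 FPKM on sucrose. Against no carbon 31 of the 83 were higher on Avicel, 2 were lower and 50 had no call.

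**Figure D2:**
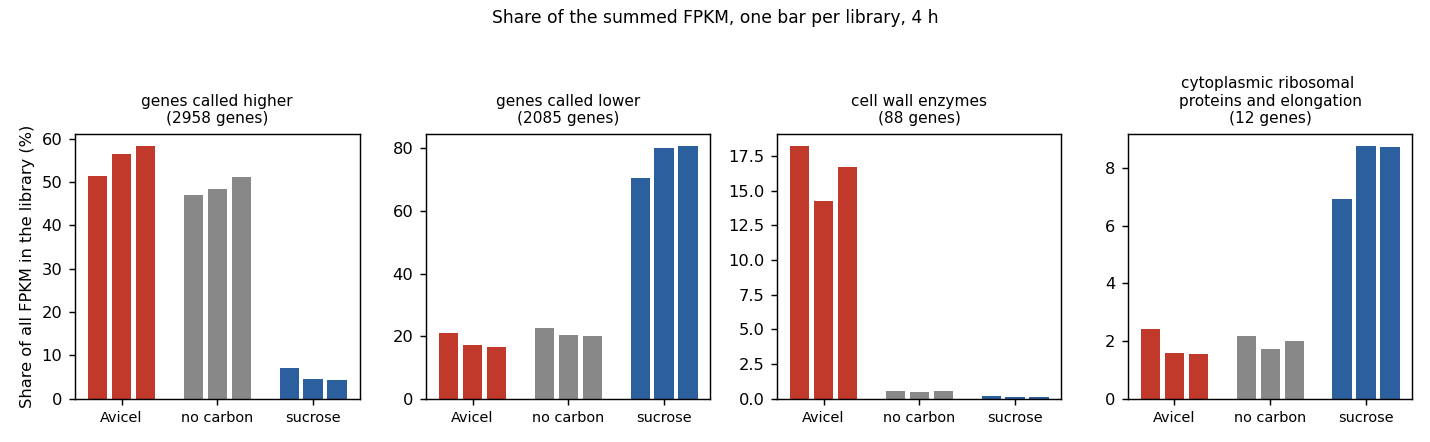
Share of all FPKM in a library held by 4 gene sets, 1 bar per library, with Avicel, no carbon and sucrose at 4 h from left to right and a separate vertical axis for each set. The listed ribosomal and elongation genes hold 1.55% to 2.42% on Avicel and 6.94% to 8.75% on sucrose, and the cell wall enzymes hold 14.3% to 18.2% on Avicel and at most 0.169% on sucrose.

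Outside the list of cell wall enzymes, which was drawn up by symbol, the largest rises were of transcripts that were almost absent on sucrose. The top one was NCU04870, on supercontig 4 at 560167 to 561105 in the deposited coordinates, whose genome build is not given in the sources used here. It had 9399, 5098 and 6862 FPKM on Avicel and 5.75, 3.76 and 8.10 FPKM with no carbon and was listed at 0 in all sucrose libraries, which gives no fold. NCU10107, with 601, 2953 and 3604 FPKM on Avicel, and NCU09416, with 4069, 777 and 978 FPKM on Avicel, were also listed at 0 in all sucrose libraries. The cellodextrin transporter gene cdt-2, on supercontig 1 at 318873 to 321079, had 34039.6, 64599 and 70796 FPKM on Avicel and 5.58, 49.7 and 11.6 FPKM on sucrose (log2 change 11.70, SE 0.68, adjusted p = 1.5e-08). Its lowest Avicel library was far above its highest sucrose library, and cdt-2 was the fifth most abundant transcript on Avicel, between the cellulase genes gh6-2 and gh6-3.

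Of the 15 largest rises outside that list, 14 had no symbol, so no role is given to them. Some of them may encode cell wall enzymes, since a gene with no symbol could not enter the list. NCU05159 was the most abundant of those 14, with 34712, 27982 and 35960.4 FPKM on Avicel and 17.6, 24.1 and 10.47 FPKM on sucrose (log2 change 10.87, SE 0.32, adjusted p = 5.9e-11). NCU05853 had 8415, 32427 and 34915 FPKM on Avicel and 11.8, 36.9 and 9.05 FPKM on sucrose (log2 change 10.29, SE 0.87, adjusted p = 4.0e-07). Against no carbon, 13 of the 15 were also higher on Avicel, and NCU08856 and NCU04169 had no call. NCU08856 had 1888, 1578 and 2167 FPKM on Avicel, 1475, 2688 and 3081 FPKM with no carbon and at most 2.55 FPKM on sucrose. NCU04169 had 1306, 4581 and 4560.5 FPKM on Avicel and 19.8, 1363 and 419.9 FPKM with no carbon (log2 change 3.72, adjusted p = 0.13). All 15 had Avicel libraries above every sucrose library, which the rule for naming them required.

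All 3 named sugar transporter genes rose, and the glucose transporter gene hgt-1 had 4921, 5254 and 5466 FPKM on Avicel and 76.99, 242 and 252 FPKM on sucrose (log2 change 4.95, SE 0.41, adjusted p = 3.8e-07). Of 9 genes for carbon regulators 5 rose and none fell, beside 34.3% and 24.2% of all tested genes. The 4 with no call included cre-1, which encodes the repressor of carbon catabolite repression. It had 699.5, 113 and 139.9 FPKM on Avicel and 566, 551 and 649.7 FPKM on sucrose (log2 change -1.39, adjusted p = 0.095). Avicel replicate 1 lay above all sucrose libraries and the other Avicel libraries below them, and without replicate 1 cre-1 fell (log2 change -2.21, adjusted p = 0.0068). The largest rises in the list were those of clr-2 (8.57), xlr-1 (6.93), the regulator of hemicellulase genes, and clr-1 (4.06). The level of vib-1, a regulator needed for growth on cellulose, was 1184, 1362 and 1476 FPKM on Avicel, 183, 373 and 233 FPKM with no carbon and 644, 440.3 and 432 FPKM on sucrose (log2 change 1.43, SE 0.41, adjusted p = 0.0082).

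Of 14 genes for folding and glycan processing in the endoplasmic reticulum, the entry to the secretory path, 6 rose and 1 fell (median change 0.69), beside 34.3% and 24.2% of all tested genes. Most of the rises were of glycan processing genes, and grp78 was the 1 chaperone gene among them; the folding gene erp38 had no call (log2 change -0.13, adjusted p = 0.69). Of 10 heat shock genes 8 fell and none rose (median -2.08). The chaperone gene grp78, on supercontig 6 at 2302462 to 2305332, had 15979, 11826 and 13257 FPKM on Avicel and 4451, 2710.0 and 2747 FPKM on sucrose (log2 change 2.08, SE 0.42, adjusted p = 7.8e-04). The gene dpm, for the enzyme that makes dolichol phosphate mannose for glycan assembly, had 3217, 2549 and 2565 FPKM on Avicel and 1142, 729 and 691 FPKM on sucrose (log2 change 1.73, SE 0.22, adjusted p = 1.8e-05). Neither gene had overlapping libraries. In the GH47 family, which holds mannosidases that trim glycans, gh47-3, gh47-5, gh47-6 and gh47-8 rose and gh47-4 fell. The rise of gh47-8 was near the floor, with 0, 5.52 and 7.96 FPKM on Avicel and 0 in all sucrose libraries, and its groups overlapped. The change of gh47-5 was the largest of the list at 5.34.

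All 3 Hsp70 genes of the heat shock list fell. The gene hsp70-2 had 1982, 187 and 232 FPKM on Avicel and 14734, 31180.0 and 35572 FPKM on sucrose (log2 change -5.84, SE 0.69, adjusted p = 8.2e-06). The mitochondrial chaperonin gene hsp60 had 142, 84.3 and 86.1 FPKM on Avicel and 1991, 2222 and 2555 FPKM on sucrose (log2 change -4.46, SE 0.26, adjusted p = 1.5e-08). Every Avicel library was below every sucrose library for both genes, although Avicel replicate 1 was the highest of its group. The genes hsp98 and hsp30 were the 2 with no call.

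All 12 listed genes for cytoplasmic ribosomal proteins and elongation factors fell, with a median change of -4.07, beside 24.2% of all tested genes. A gene with no symbol could not enter this list, so it need not hold every ribosomal protein gene. The median of their mean levels was 2340 FPKM on Avicel, 2160 FPKM with no carbon and 29200 FPKM on sucrose. The ribosomal protein genes crp-5 and ubi::crp-6 lie side by side on supercontig 7, at 2789659 to 2790607 and 2790927 to 2792027. The gene crp-5 had 8539, 2282 and 2432 FPKM on Avicel and 32407, 88681 and 75144 FPKM on sucrose (log2 change -4.05, SE 0.52, adjusted p = 1.8e-05), and ubi::crp-6, which encodes ubiquitin fused to a ribosomal protein, had 7161, 1795 and 2052 FPKM on Avicel and 27492, 72574 and 65402 FPKM on sucrose (log2 change -4.09, SE 0.57, adjusted p = 3.4e-05). In both genes Avicel replicate 1 stood above the other Avicel libraries and sucrose replicate 1 below the other sucrose libraries, without overlap.

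The 2 kinds of translation gene differed in size of change. Ribosomal protein genes changed by -3.93 to -4.54, whereas tef-1, for elongation factor 1-alpha, changed by -1.94, eif5A by -1.74 and cot-3, for elongation factor 2, by -1.43. The gene tef-1 remained among the 10 most abundant transcripts on Avicel, with 61254, 38531 and 38342 FPKM, against 154487, 176205 and 188323 FPKM on sucrose. The calls of tef-1 (adjusted p = 0.15) and cot-3 (0.063) were lost with the replicate number as a block, and the difference between the 2 kinds was not tested. The gene cpc-2, for a protein of the small ribosomal subunit that is needed for the cross-pathway control of amino acid synthesis, had 4236, 794 and 788 FPKM on Avicel and 26173, 35854 and 39827 FPKM on sucrose (log2 change -4.59, SE 0.55, adjusted p = 9.7e-06).

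**Figure D3:**
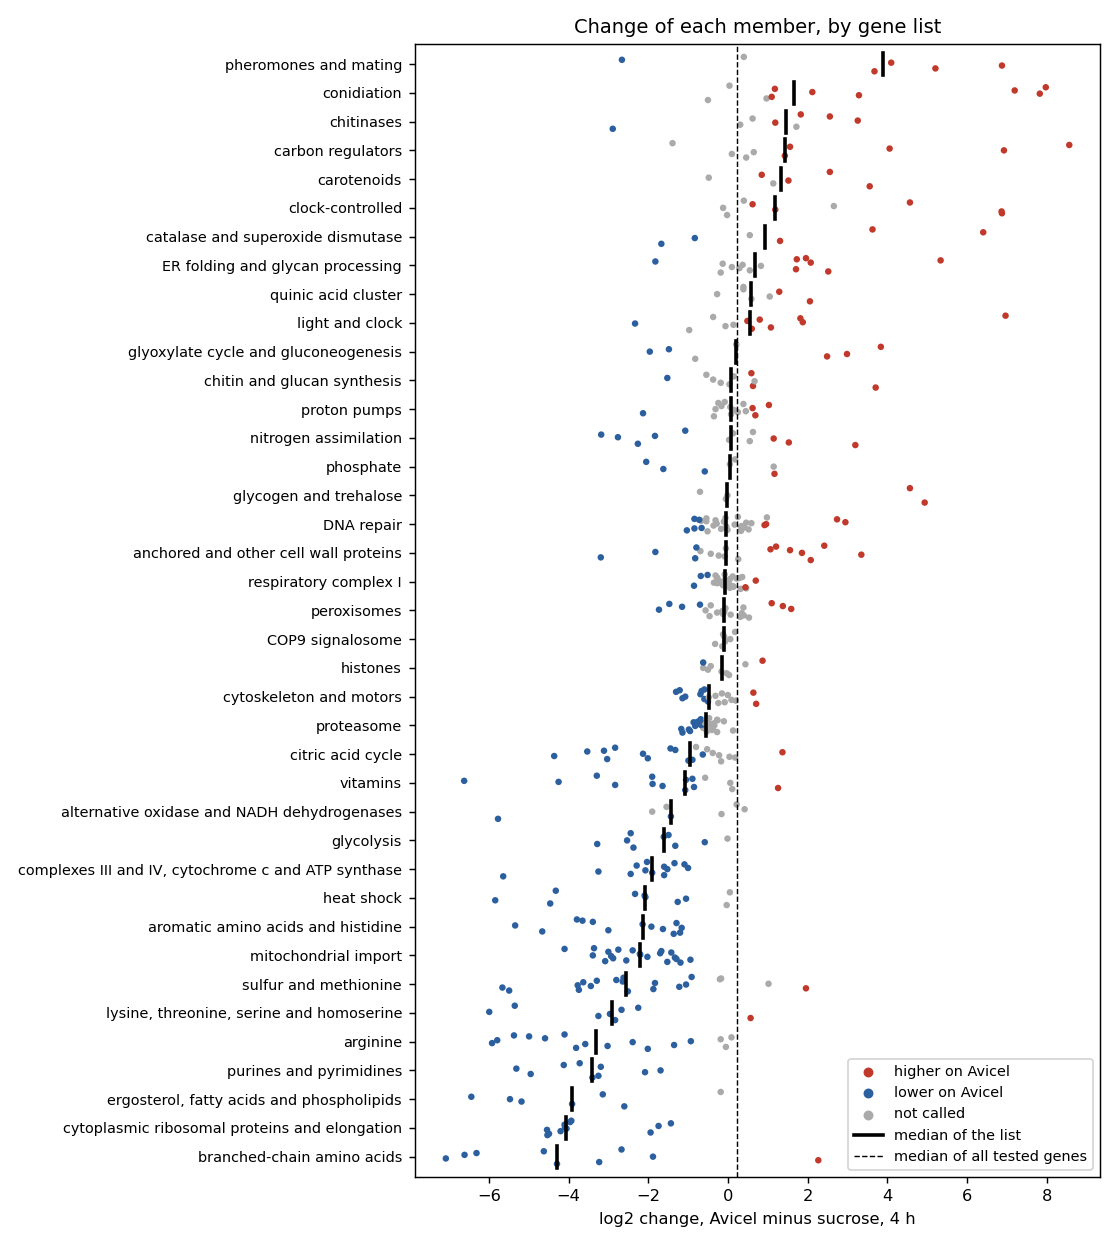
Log2 change on Avicel against sucrose of every tested member (points) of the lists with at least 5 tested members, cell wall enzymes left out, with the median of each list (bar) and of all tested genes (dashed line, 0.24). Lists run down the page by median, with pheromones and mating at 3.89 at the top and branched-chain amino acids at -4.29 at the bottom.

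Genes of amino acid synthesis fell across families. Of 9 genes for branched-chain amino acids 8 fell (median -4.29), of 16 of arginine metabolism and its control 13 fell (median -3.30), of 13 for aromatic amino acids and histidine all 13 fell (median -2.14) and of 8 for lysine, threonine, serine and homoserine 7 fell (median -2.90). Outside these falls only ilv-5 and thr-5 rose. These lists were chosen with earlier results known, so their counts stand only beside the 24.2% of all tested genes that fell.

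The deepest fall among them was that of ilv-2, on supercontig 5 at 1828479 to 1830575, which encodes ketol-acid reductoisomerase of isoleucine and valine synthesis. It had 235, 78.05 and 83.7 FPKM on Avicel and 12406, 16204 and 19370.2 FPKM on sucrose (log2 change -7.08, SE 0.43, adjusted p = 2.3e-08). The next deepest were those of leu-2, for isopropylmalate isomerase of leucine synthesis, and ilv-6, with a log2 change of -6.31 (SE 0.60). The level of leu-2 was 18.9, 15.02 and 12.7 FPKM on Avicel and 1225, 1655 and 1991 FPKM on sucrose (log2 change -6.61, SE 0.46, adjusted p = 7.2e-08), and leu-1, for isopropylmalate dehydrogenase, changed by -4.62 (SE 0.27). The exception ilv-5 had 381, 448 and 364 FPKM on Avicel and 233, 58.1 and 38.98 FPKM on sucrose (log2 change 2.27, SE 0.70, adjusted p = 0.013), a rise that was lost without sucrose replicate 3 (adjusted p = 0.064).

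In arginine synthesis both subunits of the arginine-specific carbamoyl phosphate synthetase fell. The gene arg-2, for the small subunit, had 222, 82.9 and 86.9 FPKM on Avicel and 2830.1, 4559 and 4072 FPKM on sucrose (log2 change -4.99, SE 0.68, adjusted p = 2.9e-05). The gene arg-3, for the large subunit, had 66.6, 19.8 and 18.96 FPKM on Avicel and 1582, 1885 and 2062 FPKM on sucrose (log2 change -5.92, SE 0.67, adjusted p = 5.9e-06). Avicel and sucrose libraries were far apart for both genes. The gene arg-10, for argininosuccinate lyase at the end of the pathway, changed by -5.37. The genes arg-14, arg-15 and cpc-3 had no call. The regulator gene cpc-1, which turns on amino acid synthesis genes when an amino acid runs short, had 4957, 4438 and 5343 FPKM on Avicel and 6575, 11796 and 10410.1 FPKM on sucrose (log2 change -0.93, SE 0.30, adjusted p = 0.017). This smaller fall was lost with the replicate block (adjusted p = 0.079) and without Avicel replicate 2 (0.057), sucrose replicate 2 (0.076) or sucrose replicate 3 (0.059).

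For aromatic amino acids, aro-1, which encodes the arom protein with the central steps of the shikimate path, had 77.5, 44.8 and 48.5 FPKM on Avicel and 1209, 1486 and 1603 FPKM on sucrose (log2 change -4.66, SE 0.60, adjusted p = 1.6e-05). The genes aro-6, aro-7 and aro-8 encode the 3 isoenzymes of the entry step, and all fell. The level of aro-6 was 1003, 359.6 and 509 FPKM on Avicel, 109.6, 112 and 137 FPKM with no carbon and 2004, 2928 and 2675 FPKM on sucrose, so that Avicel stood between the other media. The histidine gene his-3 fell less (log2 change -1.63, SE 0.31). Of the lysine genes lys-3 had 26.9, 8.90 and 9.90 FPKM on Avicel and 629, 1061 and 1143 FPKM on sucrose (log2 change -5.99, SE 0.76, adjusted p = 1.6e-05). The rise of thr-5 was small (log2 change 0.57) and was lost without Avicel replicate 3 (adjusted p = 0.062) or sucrose replicate 3 (0.063).

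Sulfur and methionine genes fell together with their activator. Of 20 tested genes 16 fell, 1 rose and 3 had no call (median -2.56). Of all tested genes 24.2% fell and 34.3% rose. The gene met-8, for methionine synthase, had 4283, 1844 and 1717 FPKM on Avicel and 31152, 27439.7 and 29925 FPKM on sucrose (log2 change -3.63, SE 0.34, adjusted p = 1.0e-06). The gene eth-1, for S-adenosylmethionine synthetase, had 439, 147 and 165 FPKM on Avicel and 7530.0, 12987 and 14325 FPKM on sucrose (log2 change -5.66, SE 0.44, adjusted p = 2.0e-07). Avicel replicate 1 was the highest Avicel library in both genes and was still well below sucrose. Sulfate uptake and activation went with them: cys-14, for a sulfate permease, changed by -3.77 and cys-11, for ATP sulfurylase, by -5.49. The activator gene cys-3 had 566, 547 and 561 FPKM on Avicel and 1282, 1270.1 and 1344 FPKM on sucrose (log2 change -1.22, SE 0.20, adjusted p = 1.5e-04), a small change in libraries that agreed closely within each group. The genes scon-2 and scon-3, whose products hold CYS-3 in check, and ars-1, for arylsulfatase, had no call, and sor-4 rose (log2 change 1.96).

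Genes of nucleotide, cofactor and lipid synthesis fell as well, and their counts stand beside the 24.2% of all tested genes that fell. All 9 purine and pyrimidine genes fell (median -3.40); the purine gene ad-5 had 240.3, 113 and 112 FPKM on Avicel and 3838, 4513 and 5293 FPKM on sucrose (log2 change -4.95, SE 0.48, adjusted p = 1.4e-06). Of 15 vitamin genes 11 fell, rib-3 rose and 3 had no call (median -1.07). The vitamin B6 genes pdx-1 and pdx-2 lie next to each other on supercontig 4 with 1153 bases between them. The gene pdx-1 had 312, 115 and 87.8 FPKM on Avicel and 16419, 14043 and 13274 FPKM on sucrose (log2 change -6.62, SE 0.57, adjusted p = 5.2e-07), and pdx-2 changed by -4.25 (SE 0.55). The thiamine gene nmt-1 changed by -3.29, with 4954, 3589 and 1597 FPKM on Avicel and 50095, 26826 and 19898 FPKM on sucrose.

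Of 7 genes for ergosterol, fatty acids and phospholipids, 6 fell (median -3.91), beside 24.2% of all tested genes, and erg-3 had no call. The genes cel-1 and cel-2, for the subunits of fatty acid synthase, are neighbours on supercontig 4 at 4422513 to 4428535 and 4432595 to 4439201. The gene cel-1 had 30.9, 23.3 and 19.7 FPKM on Avicel and 1936, 2233 and 2409.6 FPKM on sucrose (log2 change -6.44, SE 0.45, adjusted p = 7.4e-08), and cel-2 changed by -5.47 (SE 0.43). The gene inl, for inositol phosphate synthase, had 581, 135 and 140.3 FPKM on Avicel and 8364, 7582 and 8317 FPKM on sucrose (log2 change -5.18, SE 0.50, adjusted p = 1.4e-06). No library of these 3 genes on Avicel reached the level of any sucrose library. The gene chol-1, for a methyltransferase of phosphatidylcholine synthesis, changed by -3.14 (SE 0.28).

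Nitrogen genes changed in both directions. Of 12 genes 5 fell, 3 rose and 4 had no call (median 0.08). Of all tested genes 24.2% fell and 34.3% rose (median 0.24), so change in both directions is not particular to this list. The gene am, for the NADP-dependent glutamate dehydrogenase that fixes ammonium, had 3958, 2900.3 and 4099 FPKM on Avicel and 14824, 18741 and 18475 FPKM on sucrose (log2 change -2.26, SE 0.51, adjusted p = 0.0018). The gene gdh-1, for the NAD-dependent enzyme that releases it, had 2301, 923 and 459.5 FPKM on Avicel, 4034, 2422 and 1839.7 FPKM with no carbon and 121, 99.3 and 103 FPKM on sucrose (log2 change 3.20, SE 0.52, adjusted p = 1.3e-04). Avicel and sucrose libraries did not overlap in either gene, with Avicel lower for am and higher for gdh-1. The glutamine synthetase gene gln-1, the nitrate reductase gene nit-3, the nitrate uptake gene nit-10 and the nitrogen regulator gene nit-2 fell, with log2 changes of -1.83, -2.76, -3.18 and -1.07, whereas gln-2 and xdh-1 rose.

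In central carbon metabolism 8 of 9 tested glycolysis genes fell (median -1.61) and all 3 pentose phosphate genes fell. Of 20 genes of the citric acid cycle and pyruvate dehydrogenase 12 fell and tca-16 rose (median -0.94). Of all tested genes 24.2% fell and 34.3% rose (median 0.24). The pyruvate kinase gene ace-8 had 2452, 1367 and 1431 FPKM on Avicel and 8873, 10532 and 9859.5 FPKM on sucrose (log2 change -2.53, SE 0.25, adjusted p = 1.7e-06). The glyceraldehyde phosphate dehydrogenase gene gpd-1 had 50685, 13037 and 11219.8 FPKM on Avicel and 68658, 40638 and 41292 FPKM on sucrose (log2 change -1.32, SE 0.51, adjusted p = 0.039). Its groups overlapped through Avicel replicate 1, and the call was lost with the replicate block (adjusted p = 0.14) and in 5 of the 6 fits that left out 1 library (0.054 to 0.17). The deepest fall near the cycle was that of ace-3, an acetate requirement gene, with 399, 199 and 223 FPKM on Avicel and 4996, 5063 and 6082 FPKM on sucrose (log2 change -4.36, SE 0.26, adjusted p = 1.8e-08). Citrate synthase, encoded by cit-1, changed by -2.01 (SE 0.25).

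The glyoxylate and gluconeogenesis genes had no common direction, with 3 rises and 2 falls among 7 (median 0.21), beside 34.3% and 24.2% of all tested genes. The gene acu-15, for a transcription factor of acetate use, had 1919, 1152 and 1118 FPKM on Avicel and 159, 187 and 163 FPKM on sucrose (log2 change 2.99, SE 0.24, adjusted p = 2.4e-07). The gene fbp-1, for fructose bisphosphatase, changed by 2.49 (SE 0.46). The gene acu-6, for phosphoenolpyruvate carboxykinase, had 9303, 584 and 82.7 FPKM on Avicel, 1161, 12642 and 599.8 FPKM with no carbon and 115, 33.1 and 38.3 FPKM on sucrose. Its Avicel libraries ran from below a sucrose library to far above all of them, and its rise (log2 change 3.84, SE 1.39) was lost without Avicel replicate 1 (2.04, adjusted p = 0.14), without Avicel replicate 2 (0.051), sucrose replicate 2 (0.082) or sucrose replicate 3 (0.076) and with the replicate block (0.052). The isocitrate lyase gene acu-3 had 293, 229.5 and 151 FPKM on Avicel, 1874, 836 and 808 FPKM with no carbon and 524, 331 and 325 FPKM on sucrose; it had no call (log2 change -0.82, adjusted p = 0.39) and was called lower with the replicate block (0.022).

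Respiration was divided by complex. All 13 genes for complexes III and IV, cytochrome c and ATP synthase fell (median -1.90). Of 29 genes for complex I, the large NADH dehydrogenase, 3 fell, 2 rose and 24 had no call (median -0.07). Of all tested genes 24.2% fell and 34.3% rose (median 0.24). The median of the mean levels of the complex I genes was 1660 FPKM on Avicel, 1620 FPKM with no carbon and 1660 FPKM on sucrose. The complex I gene nuo78 had 1798, 1915 and 1864 FPKM on Avicel and 2285, 1900.2 and 1968 FPKM on sucrose (log2 change -0.14, SE 0.19, adjusted p = 0.56). The 3 falls were those of nuo24 (-0.85), nuo21.3a (-0.68) and nuo14 (-0.51). The 2 rises, of nuo10.5 (0.70) and nuo9.5 (0.44), were both lost without Avicel replicate 2, Avicel replicate 3 or sucrose replicate 1, and 1 of them was lost without sucrose replicate 3 and with the replicate block. A missing call does not show that a gene was at the same level.

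The cytochrome c gene cyc-1 had the deepest fall of those 13 genes, with 657, 227 and 209 FPKM on Avicel, 259.6, 855 and 176 FPKM with no carbon and 11453, 19811 and 17131 FPKM on sucrose (log2 change -5.64, SE 0.67, adjusted p = 8.4e-06). The ATP synthase subunit genes oli, atp-1 and atp-2 changed by -2.44, -1.90 and -2.07. The gene aac, for the carrier that exchanges ADP and ATP across the inner membrane and 1 of the 10 most abundant transcripts on sucrose, had 12498, 4690.3 and 4591 FPKM on Avicel and 68191, 67286 and 75624 FPKM on sucrose (log2 change -3.44, SE 0.42, adjusted p = 1.1e-05). Libraries of the 2 media did not overlap in any of these 5 genes.

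Of 7 genes for the alternative oxidase, its regulators and the alternative NADH dehydrogenases, ndi-1 and aod-2 fell, beside 24.2% of all tested genes. The gene ndi-1, for an internal alternative NADH dehydrogenase, had 16.6, 6.82 and 8.52 FPKM on Avicel and 262, 819 and 990.2 FPKM on sucrose (log2 change -5.77, SE 0.45, adjusted p = 2.1e-07). The alternative oxidase gene aod-1 had 3444, 24.05 and 18.4 FPKM on Avicel and 737, 192 and 291 FPKM on sucrose, with no call (log2 change -1.54, adjusted p = 0.43). Its other Avicel libraries lay below all sucrose libraries and replicate 1 above them, and without Avicel replicate 1 aod-1 fell (-3.97, adjusted p = 0.0071).

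Mitochondrial protein import fell as a list: all 21 genes for the translocases of the outer and inner membrane and their helpers fell, by 0.94 to 4.10 on the log2 scale, with a median change of -2.21. Of all tested genes 24.2% fell. No Avicel library overlapped a sucrose library in any of the 21. The gene tim54, for a part of the inner membrane carrier translocase, had 16.1, 16.1 and 16.5 FPKM on Avicel, 21.00, 19.3 and 20.2 FPKM with no carbon and 191, 351 and 379 FPKM on sucrose (log2 change -4.10, SE 0.26, adjusted p = 3.0e-08). The gene tom40, for the pore of the outer membrane, had 232, 167 and 186 FPKM on Avicel and 1116, 1447 and 1785 FPKM on sucrose (log2 change -2.88, SE 0.23, adjusted p = 2.9e-07). With both 40-base libraries left out, 20 of the 21 fell.

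Among the proton pumps pma-1 fell and most vacuolar pump genes had no call. The gene pma-1, for the plasma membrane ATPase that drives nutrient uptake, had 4029, 4065 and 4092 FPKM on Avicel and 20595, 15545 and 17585 FPKM on sucrose (log2 change -2.13, SE 0.44, adjusted p = 9.2e-04). Of the 14 genes for the vacuolar ATPase none fell and 3 rose, beside 24.2% and 34.3% of all tested genes. With both 40-base libraries left out 5 rose. The gene vma-1, for a catalytic subunit, had 1819, 1985 and 1991 FPKM on Avicel and 1687, 997 and 1015 FPKM on sucrose (log2 change 0.69, SE 0.22, adjusted p = 0.014). Only 1 of the 3 was called with the replicate block, where vma-1 had an adjusted p of 0.092, and 1 of the 3 without sucrose replicate 2 or sucrose replicate 3.

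**Figure D4:**
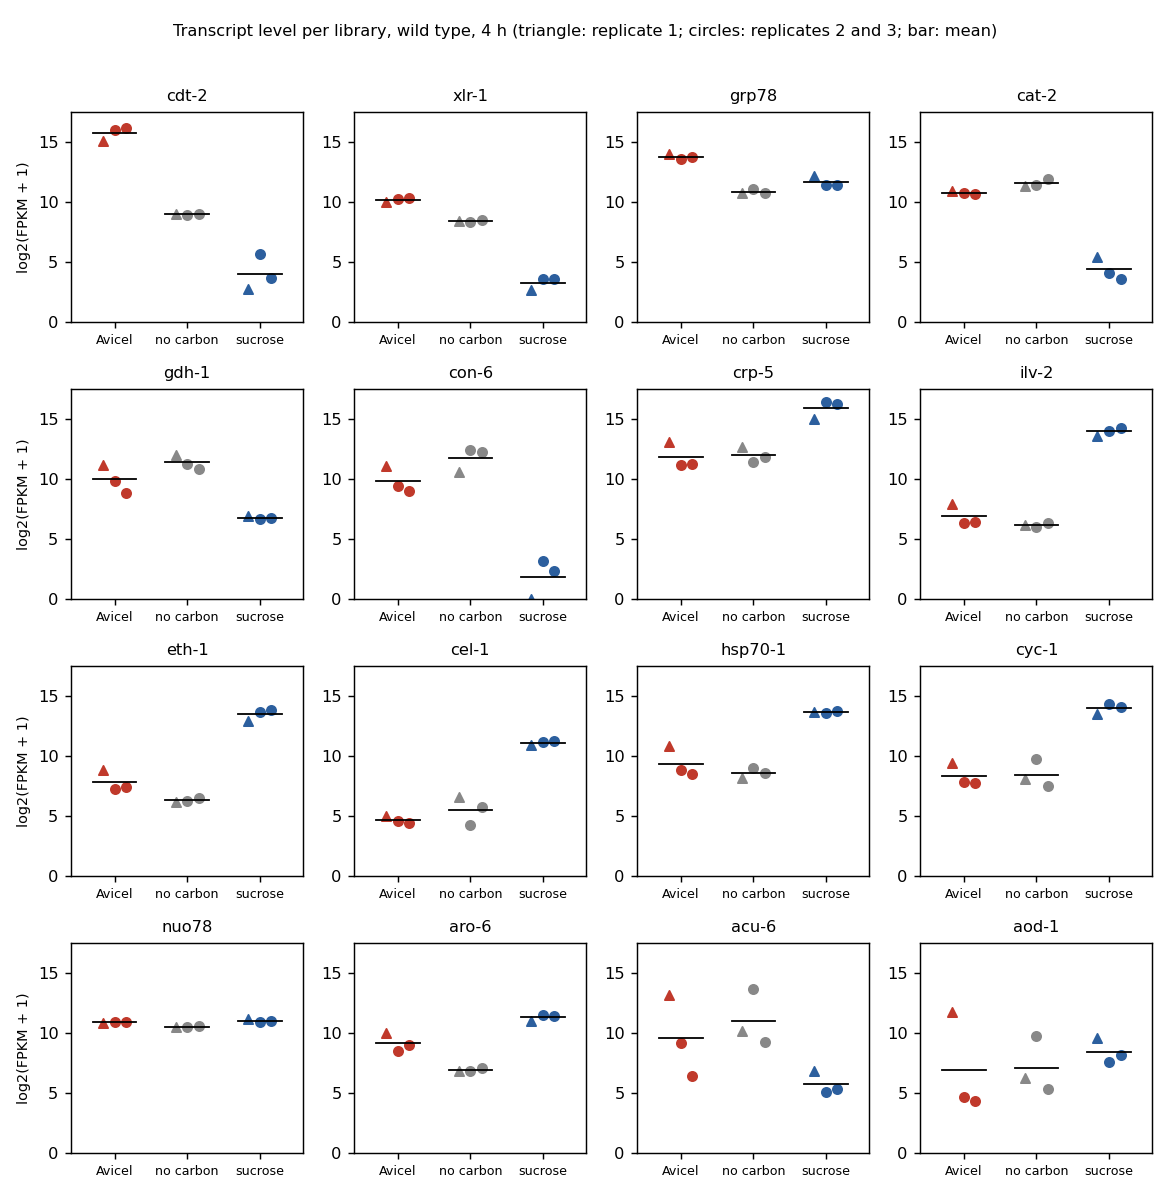
Level of 16 genes in each wild-type library at 4 h, as log2(FPKM + 1), with Avicel, no carbon and sucrose from left to right, replicate 1 as a triangle, replicates 2 and 3 as circles and the mean as a bar. For crp-5, ilv-2, eth-1, cel-1, hsp70-1 and cyc-1 the Avicel libraries lie with no carbon far below sucrose, for cdt-2, xlr-1 and grp78 they lie above both, and for acu-6 and aod-1 the Avicel libraries scatter widely.

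Several genes of asexual sporulation were higher on Avicel than on sucrose. Conidiation is the making of aerial spores, which in N. crassa starts when submerged mycelium is starved or exposed to air. Of 10 genes 7 rose and none fell (median 1.65), beside 34.3% and 24.2% of all tested genes. The 3 with no call were acon-2, csp-1 and fld. With both 40-base libraries left out 5 rose, and 8 rose with the replicate block. The gene eas, for the hydrophobin that coats conidia, had 34619.9, 20371 and 17326 FPKM on Avicel, 206272, 78251 and 65514 FPKM with no carbon and 62.5, 388 and 155 FPKM on sucrose (log2 change 7.20, SE 1.41, adjusted p = 6.3e-04). The gene con-6 had 2082, 654 and 517 FPKM on Avicel, 1516, 5383 and 4879 FPKM with no carbon and 0, 8.01 and 3.85 FPKM on sucrose (log2 change 7.98, SE 0.94, adjusted p = 8.6e-06). Libraries on Avicel were above all sucrose libraries for both genes. The neighbours con-10 and con-13 went together, con-10 changing by 7.83 (SE 1.16), while con-13 had 7.66, 9.25 and 9.63 FPKM on Avicel and was listed at 0 in all sucrose libraries.

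The summed level of the 5 markers of conidia and aerial hyphae found in the files (of 6 chosen) was 18600 to 36900 FPKM on Avicel, 73200 to 209000 FPKM with no carbon and 90.6 to 437 FPKM on sucrose, most of it from eas. Without eas it was 1290 to 2310 FPKM on Avicel, 3160 to 7690 FPKM with no carbon and 28.1 to 49.4 FPKM on sucrose. Of the 5 markers none was at 0 on Avicel, and 1 to 3 were at 0 in a sucrose library. The part of such cells in the other rises was not tested.

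Clock-controlled, light and pigment genes moved partly with them. Their counts stand beside the 34.3% of all tested genes that rose. Of 9 clock-controlled genes 5 rose; 3 of the 5 were called with the replicate block, and 3 of the 5 in each fit without Avicel replicate 2, Avicel replicate 3 or sucrose replicate 3. The most abundant, ccg-1, had 52427, 135310.0 and 138708 FPKM on Avicel, 171706, 255469 and 301939 FPKM with no carbon and 1411, 1327 and 328 FPKM on sucrose (log2 change 6.87, SE 0.71, adjusted p = 2.5e-06). Of 12 light and clock genes 7 rose and frh fell (median 0.55). With both 40-base libraries left out 5 of them rose, and 5 rose with the replicate block. The opsin gene nop-1 had 179, 408 and 408 FPKM on Avicel and 0, 3.87 and 2.11 FPKM on sucrose (log2 change 6.97, SE 0.50, adjusted p = 9.1e-08). The gene frh, for the helicase that binds the clock protein FRQ, had 61.9, 71.9 and 74.8 FPKM on Avicel and 139, 539.9 and 584 FPKM on sucrose (log2 change -2.33, SE 0.45, adjusted p = 5.3e-04). Of 6 carotenoid genes 4 rose (median 1.33), among them al-1, for phytoene desaturase, by 3.56 (SE 0.67).

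Of 6 tested genes for pheromones and mating 4 rose and poi-2 fell, beside 34.3% and 24.2% of all tested genes. The mating type gene matA-1 had 46.8, 283 and 337 FPKM on Avicel and 0, 9.58 and 7.56 FPKM on sucrose (log2 change 5.21, SE 0.96, adjusted p = 3.7e-04). The pheromone precursor gene ccg-4 changed by 6.88 (SE 0.91), and pre-1, for a pheromone receptor, had 19.03, 218 and 248 FPKM on Avicel and 2.54, 12.3 and 10.1 FPKM on sucrose (log2 change 3.68, SE 0.80, adjusted p = 0.0014). In these 3 genes Avicel replicate 1 was the lowest of its group and still above all sucrose libraries.

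Catalase genes changed in both directions. The gene cat-2, for a catalase-peroxidase, had 1949.6, 1682 and 1587 FPKM on Avicel, 2588, 2627 and 3828 FPKM with no carbon and 41.3, 15.7 and 11.1 FPKM on sucrose (log2 change 6.41, SE 0.43, adjusted p = 4.3e-08). The gene cat-1, for the catalase that is abundant in conidia, had 276, 761 and 669 FPKM on Avicel and 85.7, 59.3 and 13.4 FPKM on sucrose (log2 change 3.63, SE 0.68, adjusted p = 4.2e-04). The gene cat-3, for the catalase of growing hyphae, had 206, 154 and 158 FPKM on Avicel and 1260.3, 382 and 337 FPKM on sucrose (log2 change -1.67, SE 0.38, adjusted p = 0.0019). The groups did not overlap in any of the 3. Of the superoxide dismutase genes sod-2 rose and sod-1 fell (log2 change -0.83). The call of sod-1 was lost with the replicate block (adjusted p = 0.096), without sucrose replicate 1 (0.068) and without both 40-base libraries (0.12). Of 5 genes for glycogen and trehalose tre-1, for trehalase, and ccg-9, for trehalose synthase, rose; tre-1 had 111, 363 and 398 FPKM on Avicel and 3.04, 11.1 and 10.51 FPKM on sucrose (log2 change 4.94, SE 0.76, adjusted p = 8.1e-05).

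Cell wall and cell structure genes changed in both directions, as did all tested genes, of which 34.3% rose and 24.2% fell. Of 17 genes for anchored and other cell wall proteins 7 rose and 4 fell (median -0.05), with 2 falls left without Avicel replicate 2, Avicel replicate 3 or sucrose replicate 1 or without the 40-base libraries. The gene acw-10 had 3038, 4091 and 4783 FPKM on Avicel and 222, 526 and 472 FPKM on sucrose (log2 change 3.35, SE 0.40, adjusted p = 9.6e-06), and ncw-2 had 548, 465 and 316 FPKM on Avicel and 4973, 3028 and 4086 FPKM on sucrose (log2 change -3.19, SE 0.39, adjusted p = 1.0e-05). Of 8 tested chitinase genes 4 rose and chit-1 fell (log2 change -2.89, SE 0.53). Of 10 genes for chitin and glucan synthesis 3 rose and gel-5 fell. The chitin synthase gene chs-1 had 617, 646 and 597 FPKM on Avicel and 573, 593 and 643 FPKM on sucrose (log2 change 0.04, SE 0.22, adjusted p = 0.89), with overlapping libraries.

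Several lists stood near the median of all tested genes. None of the 7 COP9 signalosome genes was called by limma (median -0.09), 0 had an unadjusted p under 0.05 and limma voom called 0; every one had overlapping libraries. Of 9 histone genes hH1 rose, by 0.87 (SE 0.23), and hH2Az fell, a call lost without Avicel replicate 1, sucrose replicate 2 or sucrose replicate 3; hH4-1 and hH4-2 encode the same protein and their reads may not be told apart. Of 31 DNA repair genes 4 rose and 5 fell (median -0.04), with 7 rises and 3 falls without Avicel replicate 1 and 3 falls without sucrose replicate 2; msh3 had the largest change, with 280.5, 436 and 461 FPKM on Avicel and 48.6, 45.5 and 52.1 FPKM on sucrose (log2 change 2.95, SE 0.29, adjusted p = 1.9e-06). Of 21 peroxisome genes 3 rose and 4 fell, with 5 rises without Avicel replicate 1 and 2 falls without Avicel replicate 3, sucrose replicate 1 or sucrose replicate 3. The gene pex11, for peroxisome proliferation, changed by 1.59 (SE 0.22). Of 7 genes of the quinic acid cluster qa-X and qa-Y rose, 1 of them with the replicate block and 4 genes without Avicel replicate 1. Of 7 phosphate genes 3 fell and 1 rose, and 1 fall was left with the replicate block or without sucrose replicate 2 or sucrose replicate 3.

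Of 29 proteasome genes 11 fell and none rose (median -0.55), beside 24.2% and 34.3% of all tested genes. The count of falls rested on single libraries: 3 fell without Avicel replicate 1, 3 without sucrose replicate 1 and 7 without sucrose replicate 2. With the replicate block 5 fell, and 1 fell with both 40-base libraries left out. Of 19 genes for the cytoskeleton and its motors 9 fell and 2 rose (median -0.48), with 5 falls without Avicel replicate 1; the 2 rises, of myo2 and ro-11, numbered 0 or 1 in each fit that left out 1 library. The beta-tubulin gene Bml had 3102, 3334 and 3301 FPKM on Avicel and 8177, 6352 and 7003 FPKM on sucrose (log2 change -1.14, SE 0.20, adjusted p = 2.3e-04). The actin gene act had 6251, 8715 and 8988 FPKM on Avicel and 12604, 10480.2 and 10116 FPKM on sucrose, with no call (log2 change -0.48, adjusted p = 0.16).

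A direct test of Avicel against no carbon asked which of these differences separate cellulose from the absence of carbon. This comparison shares its Avicel libraries with that against sucrose, and the no-carbon libraries had reads of 51 bases, so read length and medium cannot be told apart. Of the tested genes 5.39% were called, 3.66% higher and 1.73% lower on Avicel, and the median change over all tested genes was -0.15. Of the 2958 genes higher on Avicel than on sucrose, 239 were also higher and 66 lower on Avicel than with no carbon. Of the 2085 genes lower on Avicel than on sucrose, 31 were higher and 28 lower on Avicel than with no carbon. A missing call does not show that the media acted alike, since this test made few calls and its count moved with the fit. It called 465 genes, but 300 without no-carbon replicate 3 and 596 with limma voom on the recovered reads.

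Most lists that fell on Avicel against sucrose had few calls here. No gene for ribosomal proteins and elongation, branched-chain amino acids, sulfur and methionine, arginine, lipids, glycolysis, complexes III and IV, cytochrome c and ATP synthase, mitochondrial import or heat shock was called between Avicel and no carbon. These 9 lists are named because no member was called, so their lack of limma calls follows from that choice. Among the 117 genes of these 9 lists limma gave 9 an unadjusted p under 0.05, and limma voom on the recovered reads called 0 as well. The medians of these lists against no carbon were within 0.27 of 0, beside medians of -1.61 to -4.29 against sucrose. Other lists that fell did hold calls. Of 8 genes for lysine, threonine, serine and homoserine 3 were higher on Avicel than with no carbon, beside 3.66% of all tested genes. These were hom-1, lys-7 and thr-5. The aromatic, vitamin and citric acid cycle lists each held 1 higher gene: aro-6, nic-7 and cit-1. The call of cit-1 (1.14, adjusted p = 0.015) was lost with the replicate block (0.082). The purine gene ad-9 was lower. The gene aro-6, given above, changed by 2.25 (adjusted p = 6.9e-04), and its call was lost with the replicate block (0.08). The gene nic-7, of NAD synthesis, had 252, 107 and 152 FPKM on Avicel and 14.9, 16.9 and 24.6 FPKM with no carbon (log2 change 3.06, SE 0.58, adjusted p = 0.0052). The homoserine dehydrogenase gene hom-1 had 594, 234 and 266 FPKM on Avicel and 86.1, 72.2 and 109 FPKM with no carbon (log2 change 1.91, SE 0.44, adjusted p = 0.02), a call lost without Avicel replicate 1 (0.086), no-carbon replicate 1 (0.068) or no-carbon replicate 2 (0.068).

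Some genes of uptake and regulation, and the folding gene grp78, were also higher on Avicel than with no carbon. Against no carbon, cdt-1 changed by 5.62 and cdt-2 by 6.76, whereas hgt-1 had no call (1.04, adjusted p = 0.2). Of the carbon regulators clr-2 (6.80), vib-1 (2.40), clr-1 (2.03) and xlr-1 (1.78) were higher on Avicel. Of the 14 genes for folding and glycan processing in the endoplasmic reticulum 2 were higher on Avicel, 1 was lower and 11 had no call. The folding gene erp38 was among the 11 (0.72, adjusted p = 0.15). The chaperone gene grp78 had 1673, 2173 and 1713 FPKM with no carbon, and its Avicel libraries were above all others (log2 change 2.88, SE 0.42, adjusted p = 7.8e-04). The mannosidase family split: gh47-3 was higher on Avicel than with no carbon (2.56, adjusted p = 0.0017) and gh47-5 lower (-1.93, adjusted p = 0.0035), and both calls were lost with the replicate block (0.053 and 0.13).

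The sporulation genes were not higher on Avicel than with no carbon: of the 10 conidiation genes 1, con-13, was lower (-1.49, adjusted p = 0.026) and none higher, and the call of con-13 was lost without Avicel replicate 1 (0.055), Avicel replicate 2 (0.07), Avicel replicate 3 (0.066), no-carbon replicate 2 (0.066) or no-carbon replicate 3 (0.14). The median of the list against no carbon was -1.30. The gene fbp-1 was also lower (-1.70, adjusted p = 0.048), a call lost without Avicel replicate 2 (0.1), Avicel replicate 3 (0.17), no-carbon replicate 1 (0.14) or no-carbon replicate 2 (0.17). The gene pex11 was lower too (-1.0, adjusted p = 0.016), a call lost without no-carbon replicate 2 (0.057) or no-carbon replicate 3 (0.059).

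The authors' own comparison of Avicel with sucrose was set beside these calls. In the authors' deposited table from DESeq, 4375 of the tested genes had an adjusted p under 0.05, and 3995 of them were also called here, which is 91.3% of the authors' calls and 79.2% of the calls here. The sign of its fold was read from the genes, because its column headings run the other way, and all but 1 of the 3995 then went in 1 direction with the calls here. In the authors' deposited table from edgeR, whose fold runs sucrose minus Avicel, 4772 genes were called and 4144 were shared, 86.8% of the authors' calls and 82.2% of those here, with 2 in opposite directions.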

How the data were processed

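The authors aligned reads with TopHat and computed FPKM with Cufflinks 0.9.3, per the submitters' processing notes; the coverage signal and effective length that served to recover reads are deposited beside it, per the file headers. The genome build is not given in the sources used here. The authors' deposited tables from DESeq and edgeR hold fold ratios, a log2 fold change and p values. Libraries were made with oligo-dT beads and random primers, and no strand is stated, so overlapping genes cannot be told apart. The 9907 transcripts were summed to 9733 genes; the reference table gave 1093 of them a symbol. Coverage gave whole reads for 87.5% to 93.0% of transcripts under 200 reads (tolerance 0.02). Values of log2(FPKM + 1) for 26 libraries in 16 groups were fitted with limma 3.58.1 in R 4.3.3 (trended eBayes, residual degrees of freedom 10, prior 3.35, median residual SD 0.391), which was tested on simulated data. The pseudocount understates changes of low genes. The spread comes from 5 triplicates. No library was identical to another. Same-numbered Avicel and sucrose libraries deviated together (r = 0.18, 0.12 and 0.18), so the replicate numbers were taken to pair them, and a fit with the replicate block was made; other numbers gave r up to 0.16. Replicate 1 had shorter reads in both groups, so that shared read length and pairing cannot be told apart in these correlations or in the block. Alternatives were other pseudocounts, filters, scaling, fewer libraries and limma voom on recovered reads. The members and the 42 gene lists were chosen with earlier results of these data known. The lists were drawn up by symbol, so genes with no symbol are missing from them. The genes named are those of both cellulase regulators, the 15 rises and 15 falls that were largest outside the symbol-based list of cell wall enzymes with at least 10 FPKM and no overlap, up to 4 abundant members and the highest and lowest change per list, and the 10 most abundant transcripts per medium; the text gives a selection, and other genes named beside small counts were chosen after their values were seen. Promoter and protein sequences are not used here.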

Additional observations from a re-analysis of the deposited data

How the results depend on the processing

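The number of genes called between Avicel and sucrose, 5043, was 4251 to 5215 under 16 alternatives and 4440 to 5114 when 1 library was left out. It was 4600 with the replicate block, 4641 with the same 6 libraries and no block, 5128 after scaling to the median of gene ratios and 5215 with limma voom on recovered reads. Scaling to the median of gene ratios moved the median change of all genes to 0.22, against 0.24. A set of 130 named genes was followed through the alternatives, and 123 of them were called. Of these, 113 kept the call under every alternative that tested them, none reversed, and the others are given beside their values. The set leaves out some genes named beside small counts, such as nuo9.5, hH2Az, myo2 and ro-11, whose lost calls are given above. The change of erp38, which had no call (-0.13), was -0.25 to 0.1 when 1 library was left out and 0.22 without both 40-base libraries, with no call. The number called between Avicel and no carbon, 465, was 596 with limma voom on recovered reads and 576 with a pseudocount of 10. It was 300 to 433 when 1 library was left out, and 152 with the replicate block. There the same-numbered libraries had r of -0.21, -0.31 and 0.45, so that the numbers do not pair them. With genes at 0 in any of the 6 libraries left out, fewer genes could be tested, and 7316 remained against sucrose. Leaving out both replicate 1 libraries was not run against no carbon, whose libraries have no shorter reads, and the planned search for promoter motifs was not run. Depth limits genes under about 10 reads, which are listed at 0.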
